A study of Mus with 4 samples.

Results

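CircRNAs of ocular tissue were compared between 1 library from mice with a deletion of VLDLR and 1 from wild-type mice, both on the C57BL/6J background and both taken at postnatal day 12 (P12). The pups of both groups had been kept in 75% oxygen from P7, and P12 is the day on which they returned to room air. The comparison used 2 of the 4 libraries of the series. The other pair, of the same genotypes and oxygen treatment, was taken 1 day later at P13 and is used below as a second look at the same circRNAs. Ribosomal and linear RNA had been removed before paired-end sequencing, per the labels. Neither the kind of deletion nor the number of animals in a library is given in the sources used here. CircRNAs with at least 20 back-spliced junction reads over both P12 libraries were compared, and 7261 of the 44073 circRNAs listed in the series met this.

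A circular RNA forms when a splice donor joins an acceptor that lies upstream of it, and the read across that back-spliced junction is what identifies it. 1 host gene can give several circles that share one splice position and differ in the other. The rings lack free ends and are known to be abundant in neurons, the retina included. VLDLR, the very-low-density lipoprotein receptor, takes up triglyceride-rich lipoproteins and, with its relative ApoER2 (Lrp8), receives the Reelin signal. Mice without it are known for abnormal vessels that grow from the retina towards the photoreceptors. Oxygen at this level stops the growth of the young retinal vessels, so that the return to room air leaves the central retina short of oxygen.

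Of the 7261 circRNAs, 797 were called higher in the deletion library, which is 11.0%, and 769 were called lower, which is 10.6%. A call needed a ratio of at least 2 or at most 0.5 between reads scaled to each library's total junction reads, and a 95% exact interval that excluded 1. The intervals cover counting error only. With 1 library a side there is no spread between animals, no p-value is given, and every call compares these libraries and not the genotypes as such. Single circRNAs with large ratios above 1 came from the lens filament gene Bfsp1 at 26.6, the splicing factor gene Srsf1 at 16.4 and the rod arrestin gene Sag at 11.4. Single circRNAs with ratios far below 1 came from the kinesin gene Kif1b at 0.0854, the potassium channel gene Kcnn2 at 0.0983 and the kinase gene Ip6k2 at 0.129. The log2 ratio had a median of -0.03 over all tested circRNAs, with quartiles at -0.62 and 0.55. The 2 directions were thus nearly equal in number and the typical circRNA was near a ratio of 1 on this scale.

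**Figure D1:**
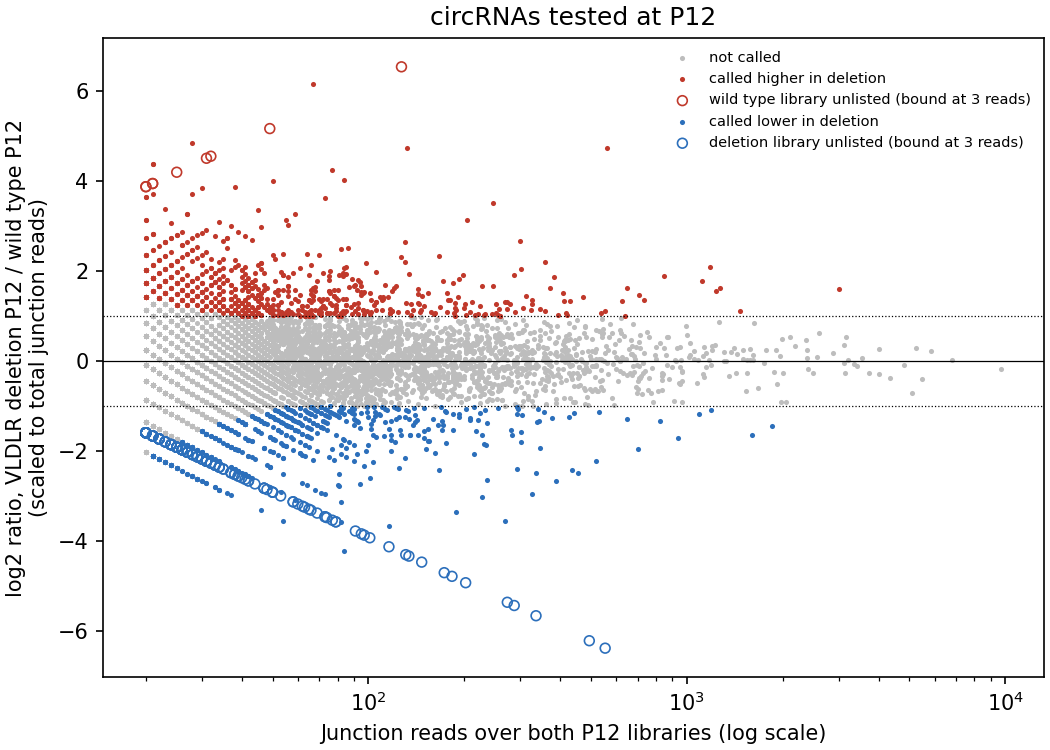
Each point is 1 of the 7261 circRNAs tested, with its junction reads over both P12 libraries on the x axis (log scale) and the log2 ratio of deletion to wild type on the y axis. Red and blue points are the 797 called higher and the 769 called lower, open circles are circRNAs unlisted in 1 library and drawn at the bound that 3 reads give, and dotted lines mark ratios of 2 and 0.5.

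The wild-type P12 library held 662811 junction reads on 28563 circRNAs and the deletion P12 library 299723 on 18022. Equal read counts in both therefore stand for a ratio of 2.21. The tested circRNAs held 82.7% of the reads in wild type and 85.3% in the deletion. Both wild-type libraries came from 1 sequencing run and both deletion libraries from another, so that genotype and run cannot be told apart. CircRNAs of Vldlr had 0 reads in all 4 libraries, which gives no check of the labels. On the authors' SRPBM scale, which divides by a constant per library, all ratios shift by -1.36 on the log2 scale, and higher and lower below are relative to the typical circRNA. In bulk tissue, fewer cells of a type and less RNA per cell cannot be told apart. Photoreceptor hosts summed to 25499 and 30124 RPM (junction reads scaled to a library of 1000000) at P12 (wild type, then deletion), bipolar hosts to 1325 and 1788, and Müller glia hosts to 33.2 and 26.7. Corneal and conjunctival hosts held 3.02 RPM in wild type and 0 in the deletion, where a count of 0 allows up to 10.01. The tissue thus held circRNAs of retina, and 12 tested circRNAs from lens hosts.

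The circRNAs with the largest differences among those listed in both P12 libraries were ranked by the interval bound nearest to 1. Counts are junction reads in wild type P12, deletion P12, wild type P13 and deletion P13, in this order. Bfsp1 encodes filensin, a beaded filament protein of lens fibre cells, and its circRNA at chr2:143841674-143849023 (exon class) held 43, 518, 57 and 411 reads. Both deletion libraries were far above both wild-type ones, with a ratio of 26.6 at P12 (95% interval 19.5 to 37.3) and 16.0 at P13. A longer Bfsp1 circRNA with the same start, ending at 143858117, held 47, 55, 53 and 65 reads and a ratio of 2.59 (1.72 to 3.90). In wild type both circles held similar counts, and in both deletion libraries the shorter one outnumbered the longer.

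Pik3c2a, a class II phosphoinositide 3-kinase gene, gave a circRNA (chr7:116358636-116360100) with 10, 122, 13 and 56 reads, a P12 ratio of 27.0 (14.2 to 57.7). Slc12a5 encodes the neuronal chloride extruder KCC2, and its circRNA (chr2:164973687-164974579) held 8, 69, 2 and 75 reads. The Slc12a5 ratio was 19.1 (9.16 to 45.9), and on each day the single deletion library was above the single wild-type one. Srsf1, a general splicing factor gene, gave one (chr11:88049977-88053039) with 10, 74, 17 and 76 reads, a ratio of 16.4 (8.42 to 35.5). Sag encodes the arrestin of rods, and its shortest tested circRNA (chr1:87828397-87834627) held 40, 207, 81 and 187 reads, a ratio of 11.4 (8.13 to 16.5). Tmem135, Ube2cbp and an intergenic circRNA at chr9:63093427-63093625 had ratios of 16.2, 12.5 and 8.79 at P12 and of 5.13, 10.3 and 7.46 at P13. Pcsk6, a proprotein convertase gene, differed from these: its circRNA (chr7:65910202-65983849) held 2 and 65 reads at P12 but 0 and 3 at P13. The other circRNAs given above from this ranking were also called higher in the P13 pair, and the 3 reads of Pcsk6 were too few to be tested there.

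Kif1b encodes an axonal kinesin, and its circRNA (chr4:149245338-149253751) held 259, 10, 300 and 19 reads, a P12 ratio of 0.0854 (0.0405 to 0.160). Ip6k2, an inositol hexakisphosphate kinase gene, gave one of 333 bases (chr9:108796064-108796396) with 309, 18, 268 and 17 reads and a ratio of 0.129 (0.0753 to 0.207). Both were low in the 2 deletion libraries and high in the 2 wild-type ones. Kcnn2, a calcium-activated potassium channel gene, had 180, 8, 119 and 7 reads (chr18:45592006-45592424; ratio 0.0983, 0.0418 to 0.198). Neurl1a, which encodes a ubiquitin ligase of the Neuralized family, had 421, 34, 346 and 25 (chr19:47239802-47240671; 0.179, 0.122 to 0.254). Snx5, a sorting nexin gene (chr2:144254726-144259178), and Tmeff1 (chr4:48604581-48639045) were lower at P12 than at P13, with ratios of 0.0539 and 0.0790 against 0.425 and 0.453. Eipr1 and an intergenic circRNA share the start 28859252 on chromosome 12. The Eipr1 circRNA, which ends at 28867153, had 403, 34, 489 and 41 reads (0.187, 0.127 to 0.265), and the longer one, which ends at 28928968, had 79, 3, 61 and 0. Nfic, which encodes a nuclear factor I protein, had 363, 26, 129 and 15 reads (chr10:81420267-81420798; 0.158, 0.102 to 0.236). Slc38a10 stood apart from the other 9: its circRNA (chr11:120128423-120134882) had 216 and 12 reads at P12 but 72 and 21 at P13, where it was not called.

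**Figure D2:**
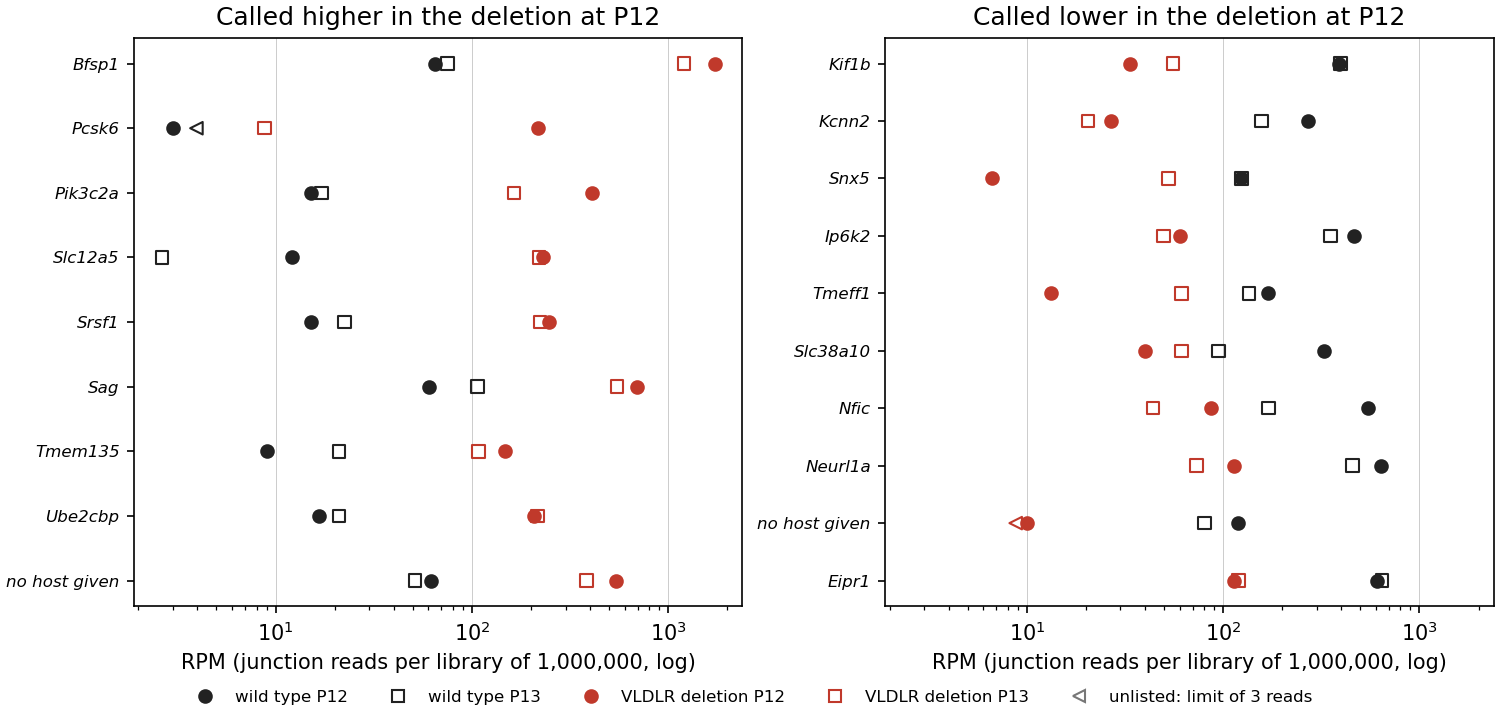
RPM (junction reads scaled to a library of 1000000, log scale) in each of the 4 libraries for 9 circRNAs called higher and 10 called lower at P12 that were among the 10 each way farthest from a ratio of 1 among those listed in both P12 libraries. Filled circles are P12 and open squares P13, black is wild type and red is deletion, and an open triangle marks an unlisted circRNA at the limit of 3 reads; the red and black symbols are apart in every row at P12, as the choice of rows requires.

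Some circRNAs were tested through 1 library alone. Of the tested circRNAs 174 were unlisted in the deletion P12 library and 9 in the wild-type P12 library, and for these the ratio is a bound computed with 3 reads for the unlisted side. It is a bound only where the circRNA was absent from that library, because the caller may have left it out. Of the 174, 124 were listed in the deletion library at P13, 37 were listed at P13 in wild type only and 13 in neither P13 library. Emc2, a gene of the endoplasmic reticulum membrane complex, had 336 reads in wild type P12 and was unlisted in deletion P12, but had 426 and 157 at P13 (chr15:43492170-43513849). The Sltm circRNA (chr9:70559037-70562861) had 183, 0, 185 and 135 reads and that of the kinase gene Pak3 (chrX:143709648-143744001) 173, 0, 174 and 72. In these 3 the deletion P12 library stood apart from the other 3 libraries. Spopl, a gene related to the ubiquitin ligase adaptor Spop, had 554 reads in wild type P12 (chr2:23537328-23545579), and the coactivator gene Ncoa2 had 494 (chr1:13177074-13224713). Zfand6 had 287 there (chr7:84632656-84634409). These 3 were unlisted in all other libraries, so that here the wild-type P12 library stood apart. Summed over its circRNAs, Ncoa2 held 2484 and 1065 reads at P12, a ratio of 0.948 (0.882 to 1.02).

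CircRNAs unlisted in both deletion libraries were a different case. An intergenic circRNA at chr15:84171082-84186081 had 202 and 227 reads in wild type and 0 in both deletion libraries, at ratios of at most 0.0328 at P12 and 0.0293 at P13. A Wdr78 circRNA (chr4:103095329-103096775), from a gene for an axonemal dynein intermediate chain, had 97 and 142 reads and 0 in the deletion (at most 0.0684 and 0.0469). The host went the other way: of 6 tested Wdr78 circRNAs 2 were called higher, and the P12 host sum was called higher (2.07, 1.84 to 2.33). Pcnx had 147 and 35 against 0 and 0 (chr12:81917665-81919380). In the other direction, Fbxw4, an F-box gene, had 0 and 127 reads at P12 and 172 and 121 at P13 (chr19:45624376-45640521), so that wild type P12 stood apart. Nedd4, a ubiquitin ligase gene, had 0, 25, 0 and 22 reads (chr9:72731222-72735239), a ratio of at least 18.4 at P12 and 16.3 at P13. Of 10 tested Nedd4 circRNAs 2 were called higher and 1 lower, and the P12 host sum was not called (1.12, 0.957 to 1.31). A circRNA at chr1:65050770-65062182 that the tables class as intergenic had 49 reads in deletion P12 and 0 in the other 3 libraries. In the RefSeq table of assembly GRCm38.p6 this stretch overlaps Cryge and Crygd, which encode gamma-crystallins of the lens. Summed over the host Cryga, another gamma-crystallin gene, reads went the other way, with 45, 4, 158 and 8.

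Photoreceptor hosts gave 129 tested circRNAs, of which 25 were called higher (19.4%) and 12 lower (9.30%), against 11.0% and 10.6% of all tested. The list's median log2 ratio was 0.06 against -0.03. The calls higher came from phototransduction genes and from genes of the outer segment and cilium, while several of the calls lower came from the same hosts. Summed per host, 3 of 23 were called higher and 3 lower, with a median log2 ratio of 0.18. Sag had 5 tested circRNAs, and all 5 were called higher. Of these, 3 share the start 87828397: the one ending at 87834627 had the ratio of 11.4, the one ending at 87837333 had 7, 16, 4 and 25 reads (5.06, 1.97 to 14.5), and the one ending at 87840847 had 136, 137, 148 and 129 (2.23, 1.74 to 2.85). Summed over the host, Sag held 286, 472, 367 and 491 reads, a ratio of 3.65 (3.14 to 4.24) at P12 and 2.97 at P13. Pde6a encodes a catalytic subunit of the rod phosphodiesterase, and 4 of its 5 tested circRNAs were called higher. The most abundant (chr18:61262416-61286060) had 219, 201, 448 and 280 reads, a ratio of 2.03 (1.67 to 2.47), and its P13 ratio of 1.39 was not called. Pde6b, the partner subunit, had 17, 27, 46 and 40 reads over the host (3.51, 1.85 to 6.87). Guanylate cyclase Gucy2f had 198, 128, 288 and 217 (1.43, 1.14 to 1.79), which is under the limit for a call.

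Rpgrip1 anchors a ciliary protein network in the photoreceptor connecting cilium and had 3 circRNAs called higher and 1 lower among 12. Those starting at 52120473 on chromosome 14 had ratios of 3.96 (2.62 to 6.05) where they ended at 52121121, 2.28 (1.70 to 3.07) at 52126384 and 0.260 (0.0671 to 0.730) at 52131432. A circRNA of Prom1, which encodes the disc protein prominin 1, had 33, 43, 33 and 38 reads (chr5:44055878-44063184; 2.88, 1.79 to 4.68). It was the 1 call among 12 tested, and the host sum was not called (1.14, 1.01 to 1.28). One of Impg2 of the interphotoreceptor matrix had 16, 26, 10 and 23 (chr16:56224338-56231552; 3.59, 1.86 to 7.17). It was 1 call of 5 tested, and the host sum was not called (1.225, 0.965 to 1.55). One of Cngb3, a cone channel subunit gene, had 22, 24, 33 and 37 (chr4:19375200-19396802; 2.41, 1.30 to 4.51). Of 4 tested Cngb3 circRNAs 2 were called higher, and the host sum was not called (1.25, 0.926 to 1.67). Cacna1f encodes the calcium channel of the photoreceptor synapse and was called lower, with 58, 13, 42 and 21 reads (chrX:7629415-7633205; 0.496, 0.249 to 0.915). Of the 37 photoreceptor calls at P12, 15 had the same call in the P13 pair.

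Ciliopathy and cilium hosts, which overlap the photoreceptor list, showed the reverse balance: 17 of 135 were called higher (12.6%) and 27 lower (20%), with a median of -0.08. Genes of intraflagellar transport, the transition zone and the BBSome were among the lower ones. Summed per host, 5 of 38 were called higher and 6 lower, with a median log2 ratio of 0.10. A circRNA of Dync2h1, the motor of retrograde ciliary transport, had 75, 5, 83 and 7 reads (chr9:6967080-6996939; 0.147, 0.0465 to 0.360). Nphp4 of the transition zone had 73, 10, 74 and 7 (chr4:152502874-152507483; 0.303, 0.139 to 0.589), and Ttc8 of the BBSome had 93, 13, 125 and 16 (chr12:98946569-98964607; 0.309, 0.159 to 0.555). These 3 circRNAs were low in both deletion libraries. Summed over the host, Dync2h1 was not called (0.821, 0.704 to 0.956), with 2 of its 8 tested circRNAs called lower. Nphp4 was called lower over the host (0.40, 0.28 to 0.57). Lca5, which encodes lebercilin, had 209, 46, 275 and 84 reads (chr9:83423023-83426961; 0.487, 0.346 to 0.673), and its P13 ratio of 0.678 was not called. Tmem231 of the transition zone went the other way, with 29, 56, 22 and 48 (chr8:111918291-111918956; 4.27, 2.68 to 6.94). Bbs9 did both and is described with its host below.

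Bipolar hosts gave 3 calls higher and 3 lower of 16, each 18.75%, against 11.0% and 10.6% of all tested. Trpm1, the channel of ON bipolar cells, had 106, 97, 128 and 69 reads (chr7:64201887-64203130; 2.02, 1.52 to 2.69), and Lrit3 had 23, 25, 29 and 30 (chr3:129791213-129800810; 2.40, 1.31 to 4.43). Otx2, a transcription factor gene of photoreceptors, bipolar cells and pigment epithelium, was called lower with 67, 13, 42 and 6 (chr14:48659216-48662659; 0.429, 0.217 to 0.784). Grik1, a kainate receptor gene of OFF bipolar cells, had 59, 10, 41 and 0 (chr16:88051335-88056175; 0.375, 0.171 to 0.739), and Grm6, the glutamate receptor of ON bipolar cells, had 27, 4, 15 and 8 (chr11:50859257-50860117; 0.328, 0.0833 to 0.940). Amacrine, horizontal and ganglion cell hosts had 5 tested circRNAs and 0 calls.

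Hosts of tissue outside the neural retina gave calls too, to be read against the 11.0% called higher and 10.6% called lower of all tested. Lens hosts summed to 1491 RPM in wild type P12 and 3086 in deletion P12, and to 1607 and 2659 at P13, and both calls among their 12 tested circRNAs (16.7% higher) came from Bfsp1. Over the host, Bfsp1 had 320, 658, 344 and 564 reads (4.55, 3.97 to 5.21). The other lens hosts with at least 20 reads at P12 were not called higher: Tdrd7 had 555, 237, 637 and 303 reads (0.944, 0.808 to 1.10), the alpha-crystallin gene Cryaa had 35, 18, 44 and 18 (1.14, 0.606 to 2.06), and Cryga was called lower (0.197, 0.0513 to 0.539). Striated muscle hosts had 7 calls higher (25%) and 1 lower (3.57%) of 28, and their sum was 2234 and 2386 RPM. All 8 calls came from the dystrophin gene Dmd, which retina also expresses. Dmd had 25 tested circRNAs, and its host sum was not called (1.075, 0.976 to 1.18). Pigment epithelium and melanocyte hosts had 1 call of 10, from Oca2, called lower with 26, 4, 20 and 6 reads. The parts that these markers play in the other calls were not tested. Endothelial hosts had 2 tested circRNAs, both called higher: Plxnd1, a semaphorin receptor gene of vessels, with 9, 27, 5 and 19 reads (chr6:115969876-115970248; 6.63, 3.03 to 16.0), and Pecam1 with 11, 14, 22 and 9 (chr11:106679549-106685248; 2.81, 1.19 to 6.85). The Pecam1 ratio at P13 was 0.908, on the other side of 1. Pericyte and fibroblast hosts had 0 tested circRNAs, microglia and leukocyte hosts 1 (Mrc1, called higher, 2.04, 1.12 to 3.70) and erythroid hosts 1 (Tfrc, called higher, 3.51, 1.85 to 6.87).

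Hosts of angiogenic signalling and vessel guidance had 32 tested circRNAs, with a median log2 ratio of 0.34. Of these, 8 were called higher (25%) and 3 lower (9.38%), against 11.0% and 10.6% of all tested. Summed per host, 3 of 19 were called higher and 0 lower, with a median log2 ratio of 0.09. The list held 3456 and 3630 RPM at P12 and 3272 and 2697 at P13 (wild type, then deletion). The calls higher came from Fgfr1, Fgfr2, Robo2, Sema5a, Slit2, Plxnd1, Dcc and Notch2, most of them growth factor receptor or guidance genes. Notch2, a Notch receptor gene, had 23, 21, 53 and 17 reads (chr3:98070860-98082039; 2.02, 1.06 to 3.82). Fgfr2 had 33, 38, 52 and 37 reads (chr7:130241200-130242644; 2.55, 1.55 to 4.19) and Fgfr1 had 13, 17, 11 and 6 (2.89, 1.32 to 6.47). The guidance receptor gene Robo2 had 35, 43, 32 and 21 (chr16:74352551-74352877; 2.72, 1.70 to 4.37), whereas its relative Robo1 was called lower with 45, 9, 20 and 4 (0.442, 0.190 to 0.916). Sema5a had 8, 20, 9 and 9 reads (5.53, 2.33 to 14.5) and the ligand gene Slit2 10, 15, 14 and 3 (3.32, 1.39 to 8.26). Both Epha7 calls were lower. Of these 11 calls 1 was made the same way in the P13 pair, that of Plxnd1, and the Dcc circRNA was called the opposite way there, with 13, 19, 21 and 0 reads.

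**Figure D3:**
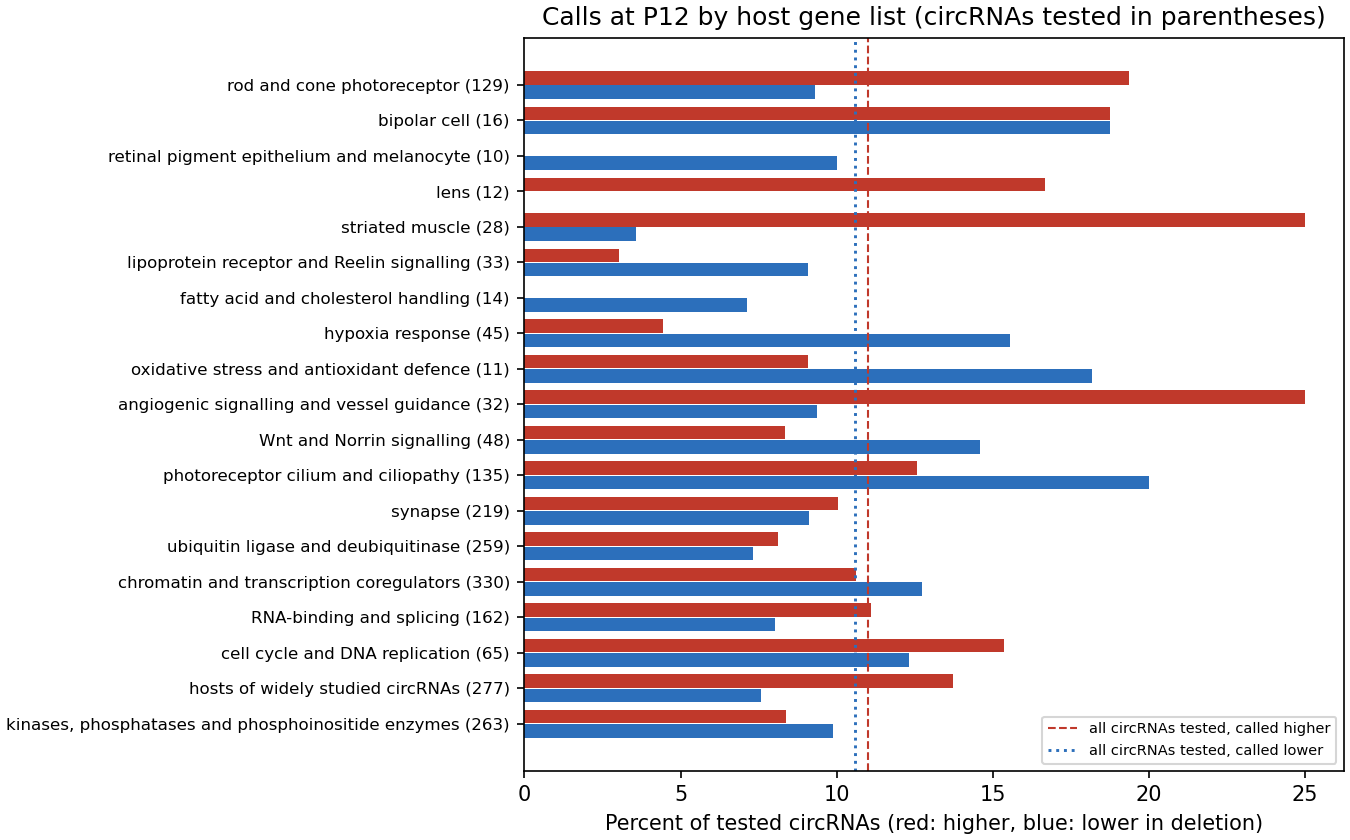
Percent of the tested circRNAs of each host gene list that were called higher (red) or lower (blue) in the deletion at P12, for lists with at least 10 tested circRNAs, whose number stands in parentheses. The dashed and dotted lines are the 11.0% called higher and 10.6% called lower of all tested circRNAs; angiogenic and striated muscle hosts are at 25% higher and cilium hosts at 20% lower, and the short lists rest on few circRNAs.

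Lipoprotein receptor and Reelin hosts, the genes closest to the deleted receptor, had 1 call higher (3.03%) and 3 lower (9.09%) of 33, against 11.0% and 10.6% of all tested, with a median of -0.10. Sorcs1, a sorting receptor gene, had 58, 59, 64 and 68 reads (chr19:50252534-50262367; 2.25, 1.54 to 3.29). Crkl, an adaptor downstream of Reelin, had 90, 13, 53 and 12 (chr16:17468893-17469358; 0.319, 0.164 to 0.574), Lrp5 had 28, 3, 11 and 6 (chr19:3647528-3659640; 0.237, 0.0461 to 0.767) and Lrp4 had 25, 0, 19 and 5. The ligand gene Reln had 92, 30, 103 and 57 reads over the host (0.721, 0.461 to 1.10), the second receptor gene Lrp8 had 70, 20, 69 and 32 (0.632, 0.364 to 1.05), and the adaptor gene Dab1 had 44, 31, 49 and 19 (1.56, 0.951 to 2.52). The intervals of these 3 include 1, and they also include a ratio of 0.5 for Reln and Lrp8 and of 2 for Dab1. Fatty acid and cholesterol hosts had 1 call of 14, which was lower (7.14%). It was that of the acyl-CoA dehydrogenase gene Acadm, with 44, 6, 74 and 15 reads (chr3:153933027-153939167; 0.302, 0.105 to 0.710). Summed per host, 1 of 16 in this list was called higher and 3 lower. Over the host, the acyl-CoA synthetase gene Acsl1 was called lower with 34, 0, 48 and 11. Lpin1 was called higher with 16, 25, 26 and 17 (3.455, 1.77 to 6.93).

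Hypoxia-response hosts had 2 calls higher (4.44%) and 7 lower (15.6%) of 45, against 11.0% and 10.6% of all tested. Their median was 0.02. Summed per host, 2 of 16 were called higher and 2 lower, with a median log2 ratio of 0.19. Kdm4b, a histone demethylase gene that hypoxia-inducible factor is known to induce, had 628, 73, 544 and 75 reads (chr17:56351633-56356056; 0.257, 0.199 to 0.328). The transcription factor gene Foxo3 had 94, 7, 101 and 10 (chr10:42196466-42197901; 0.165, 0.0645 to 0.353). Both were low in both deletion libraries. Over the host, Kdm3a was called higher with 17, 20, 36 and 15 reads (2.60, 1.29 to 5.29). Ndrg1 was too, with 9, 14, 13 and 3 (3.44, 1.39 to 9.01). Kdm4c, a relative of Kdm4b, had one circRNA on each side: 105, 20, 90 and 14 reads at chr4:74262809-74271369 (0.421, 0.247 to 0.684) and 30, 51, 30 and 46 at chr4:74348400-74359528 (3.76, 2.35 to 6.11). The coactivator gene Ep300 did the same, with 127, 142, 193 and 169 (2.47, 1.93 to 3.17) against 48, 8, 31 and 6 (0.369, 0.151 to 0.786). Its relative Crebbp had 118, 20, 89 and 54 reads (chr16:4179424-4180133; 0.375, 0.221 to 0.605), and at P13 its ratio was 1.35. Antioxidant hosts had 1 call higher (9.09%) and 2 lower (18.2%) of 11, against 11.0% and 10.6% of all tested. The call higher was of the methionine sulfoxide reductase gene Msrb3. The calls lower were of the thioredoxin reductase gene Txnrd3 and the repressor gene Bach1. Of these calls 0 were made the same way in the P13 pair.

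Wnt and Norrin hosts had 4 calls higher (8.33%) and 7 lower (14.6%) of 48, against 11.0% and 10.6% of all tested, with a median of -0.21. The Wnt receptor gene Ryk had 120, 22, 114 and 33 reads (chr9:102881654-102898850; 0.405, 0.245 to 0.643). Axin1 and Axin2 encode the scaffold of the complex that degrades beta-catenin and had 57, 6, 57 and 18 (0.233, 0.0820 to 0.539) and 50, 11, 29 and 12 (0.487, 0.228 to 0.947). Apc, of the same complex, had 36, 34, 32 and 13 reads (chr18:34261005-34279352; 2.09, 1.27 to 3.43) and a longer circle with the same start that was called lower (20, 2, 24 and 4). None of the 11 calls of this list was made the same way in the P13 pair.

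Synapse hosts were close to the background, with 22 calls higher (10.05%) and 20 lower (9.13%) of 219. The active-zone genes Rims2 and Erc2 were among the higher, and the neuroligin gene Nlgn1 and the postsynaptic scaffold gene Anks1b among the lower. Nlgn1 had 440, 91, 393 and 111 reads (chr3:26133242-26134052; 0.457, 0.361 to 0.574). Cacna2d1, a calcium channel subunit gene, had 39, 40, 13 and 33 (chr5:16264258-16267475; 2.27, 1.42 to 3.62).

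Chromatin and coregulator hosts gave 35 calls higher (10.6%) and 42 lower (12.7%) of 330, against 11.0% and 10.6% of all tested. Med13l, a Mediator subunit gene, had 403, 782, 347 and 657 reads in a circle of 238 bases (chr5:118593333-118593570; 4.29, 3.80 to 4.85), and its raw counts were higher in the smaller deletion libraries. Ep400, a remodelling ATPase gene, had 981, 208, 1152 and 217 (chr5:110755397-110756766; 0.469, 0.402 to 0.545). Hosts of RNA-binding and splicing proteins gave 18 (11.1%) and 13 (8.02%) of 162: beside Srsf1, Rbms1 had 50, 70, 44 and 76 reads (3.10, 2.12 to 4.54), while the poly(A)-binding Zc3h14 had 270, 23, 225 and 43 (chr12:98752778-98763978; 0.188, 0.117 to 0.289) and the splicing regulator Mbnl2 had 262, 40, 263 and 80 (chr14:120324794-120325412; 0.338, 0.236 to 0.472). Cell-cycle hosts gave 10 (15.4%) and 8 (12.3%) of 65, with a median log2 ratio of -0.27, and summed per host 0 of 31 were called higher and 4 lower. Esco1, a cohesin acetyltransferase gene, had 213, 258, 173 and 218 (chr18:10582055-10586041; 2.68, 2.23 to 3.23), the polymerase gene Pola1 had 201, 230, 187 and 227 (chrX:93620505-93626612; 2.53, 2.09 to 3.07) and the checkpoint gene Bub1b had 34, 55, 24 and 58 (3.58, 2.29 to 5.66). These 3 were called higher at P13 as well. The cohesin subunit gene Stag1 had 160, 32, 149 and 54 reads in its most abundant call (chr9:100776756-100803354; 0.442, 0.293 to 0.650), which was lower and was not called at P13, while 2 other Stag1 circRNAs were called higher.

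Ubiquitin ligase hosts gave 21 calls higher (8.11%) and 19 lower (7.34%) of 259, and kinase and phosphatase hosts 22 (8.37%) and 26 (9.89%) of 263, shares at or under the background. Ptpn21, a tyrosine phosphatase gene, had 471, 46, 516 and 49 reads (chr12:98733474-98733834; 0.216, 0.156 to 0.293), and all 3 of its tested circRNAs were called lower. Pik3r1, the regulatory subunit gene of class I phosphoinositide 3-kinase, had 199, 29, 118 and 29 (chr13:101757326-101758039; 0.322, 0.210 to 0.477). The Hippo kinase gene Stk3 had 133, 146, 133 and 157 (chr15:35099434-35115645; 2.43, 1.91 to 3.09). Hosts of widely studied circRNAs gave 38 calls higher (13.7%) and 21 lower (7.58%) of 277, among them Eri3 with 529, 703, 537 and 627 reads (2.94, 2.62 to 3.30).

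The 10 most abundant circRNAs were not called in either direction. Their P12 ratios ran from 0.617 (0.577 to 0.660) for Hipk3, with 3989, 1113, 4372 and 1409 reads, to 1.23 (1.16 to 1.30) for Phf21a, with 3361, 1867, 4099 and 2225. Gigyf2, a gene of translational repression, had 4686 and 2142 reads and a ratio of 1.01 (0.960 to 1.06). The share of calls was lower among deeply covered circRNAs: with at least 200 reads, 7.84% were called higher and 7.07% lower of 778, and with under 50 reads 12.3% and 9.99% of 4096.

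In some hosts circRNAs were called in both directions. Of the 1091 hosts with a call, 611 held a circRNA called higher, 600 one called lower and 120 both. In 30 of the 750 such hosts with several tested circRNAs, all of them were called in 1 direction. Summed per host, 238 of 3622 hosts were called higher (6.57%) and 406 lower (11.2%), and 360 of the 1091 hosts with a called circRNA were among these. Bbs9, a BBSome subunit gene, had 3 circRNAs called higher and 5 lower of 20, and a host sum of 9686 and 5062 reads with a ratio of 1.16 (1.12 to 1.20). Its circle of 416 bases (chr9:22887581-22887996) had 1271, 1743, 1198 and 1480 reads (3.03, 2.82 to 3.26). The one at chr9:22504045-22579593 had 193, 21, 160 and 3 (0.241, 0.146 to 0.378), and the main Bbs9 circle (chr9:22643745-22679064) had 4081, 1404, 5739 and 1641, a ratio of 0.761 (0.716 to 0.809).

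In other hosts the calls went one way. Atxn1, the gene of the transcriptional regulator ataxin 1, had 7 of 8 tested circRNAs called higher and 0 lower, with a host sum of 1024, 1197, 1254 and 1377 reads (2.59, 2.38 to 2.81). Its ratios ran from 2.14 to 6.40, and the circRNA at chr13:45852328-45956575 had 77, 223, 82 and 193 reads. Arhgap10, a GTPase-activating protein gene, had 5 higher of 29 and Rims2 had 6 of 27, none lower. Anks1b had 4 lower of 15, its most abundant call at chr10:90069468-90077142 with 1398, 204, 1458 and 254 reads (0.323, 0.277 to 0.374). The neurofibromin gene Nf1 had 4 lower of 10, and none of these 4 was called at P13.

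The tested circRNAs formed 4790 pairs that share 1 splice position and differ in the other. In 2718 of these pairs (56.7%) the shorter circle had the higher ratio of deletion to wild type, and in 2055 it had the lower, with a median log2 difference of 0.17. Over the same pairs the P13 libraries gave 58.0% and a difference of 0.19. Between days the shares were 47.1% in wild type and 48.1% in the deletion. Among the 54 pairs called in opposite ways the shorter circle was the one called higher in 38 (70.4%), as in Rpgrip1 and Apc above. This count was made after the values of Sag, Bfsp1 and Rpgrip1 had been seen, pairs of one host share reads of one locus, and an unlisted partner enters at 3 reads. Over all circRNAs, those under 500 bases between their ends were called in larger shares, 22.1% higher and 15.9% lower of 208, against 7.89% and 9.75% of the 1938 from 20000 to under 100000 bases. The 151 of 100000 bases or more did not continue this order, with 11.9% called each way. The median span was 7089 bases for those called higher, 8213 for those called lower and 10711 for those not called.

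A block of circRNAs that the tables class as intergenic lies inside the interval of Rp1 in the RefSeq table, a gene of the photoreceptor axoneme in which mutations cause retinitis pigmentosa in people. It held 53 tested circRNAs on chromosome 1, out of the 285 tested in the intergenic class. Of the 53, 7 were called higher and 6 lower, 13 of the 77 calls of that class. Of all tested circRNAs 11.0% were called higher and 10.6% lower. The 53 combine 17 starts and 12 ends. The 19 whose end was 1 of the last 2 of these positions summed to 1792, 543, 1840 and 704 reads, a ratio of 0.670 (0.608 to 0.738) at P12 and 0.850 (0.778 to 0.927) at P13. The other 34 summed to 6785, 4158, 7392 and 4702, a ratio of 1.36 (1.30 to 1.41) at P12 and 1.41 (1.36 to 1.47) at P13. At P12, 18 of the 19 were below a ratio of 1 and 23 of the 34 above it, and at P13 these counts were 10 and 27. The grouping by end was made after the values were seen.

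**Figure D4:**
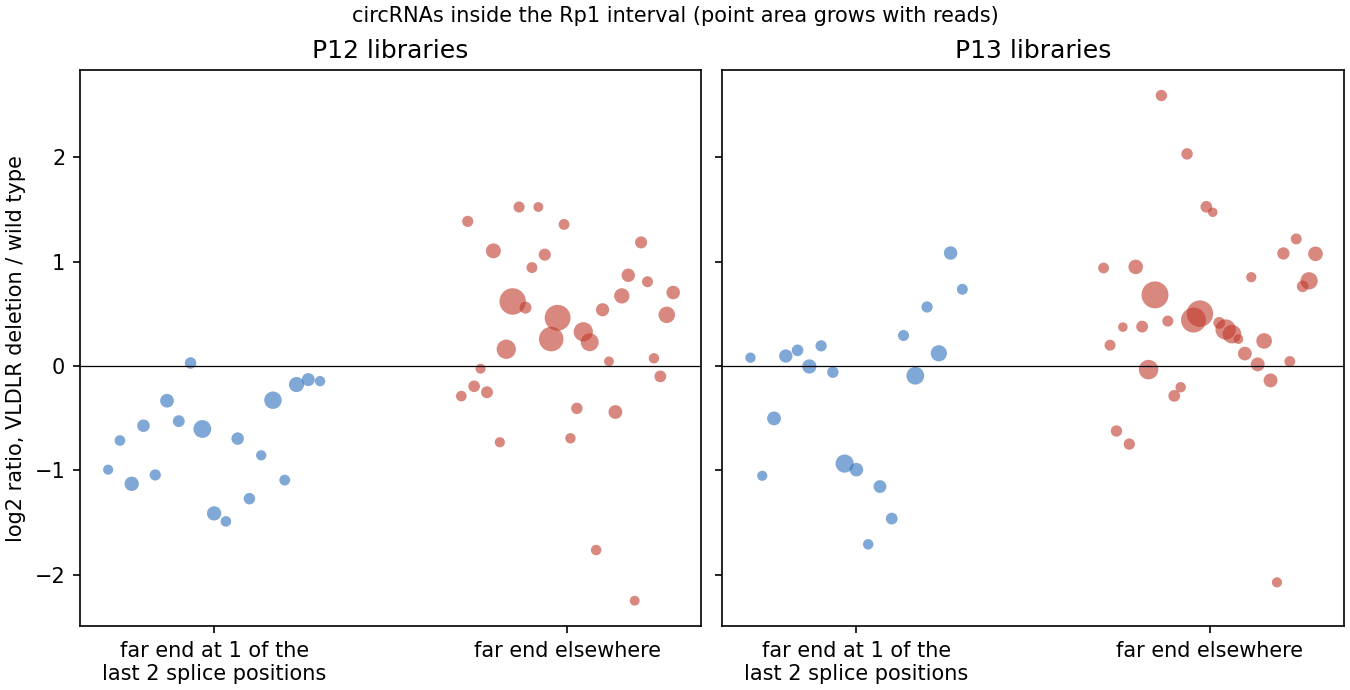
Log2 ratio of deletion to wild type for the 53 tested circRNAs inside the Rp1 interval at P12 (left) and P13 (right), split by whether the far end of the circle is 1 of the last 2 splice positions of the block; point area grows with the reads of the pair and the position along x within a group has no meaning. At P12, 18 of the 19 circRNAs of the left group are below 0 and 23 of the 34 of the right group above it, with more overlap at P13.

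The tables also give reads that cross the same splice positions without the back-splice, and a junction ratio, 2 times the junction reads over that number plus these non-junction reads. The junction reads that set a call also enter this ratio. A call therefore tends to move the ratio the same way by construction, and the ratio is no separate support for the calls. Among circRNAs with at least 20 junction reads in each P12 library, the 340 called higher had a median ratio of 0.431 in wild type against 0.592 in the deletion, and it was higher in the deletion for 318. For the 77 called lower it was 0.765 and 0.598, and lower in the deletion for 74. For the 2054 not called the medians were 0.624 and 0.622, and it was higher in the deletion for 1069 and lower for 974. Non-junction reads, scaled to their own library totals, had median log2 ratios of 0.89, 0.40 and 0.72 in these groups. Those totals were 6102077 in wild type P12 and 1766770 in deletion P12, a larger difference than that of the junction reads. The median over the groups together was 0.73, so that a value above 0 is no rise on the junction scale. The junction reads of the same 3 groups had medians of 1.26, -1.28 and 0.12.

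The P13 libraries share no library with the P12 pair, and their genotypes differ by the same sequencing runs. Of 8014 circRNAs tested there, 819 were called higher (10.2%) and 771 lower (9.62%). Of the 797 called higher at P12, 698 were tested at P13, where 311 had the same call (44.6%), 6 the opposite one and 590 were on the same side of 1. Of the 769 called lower, 675 were tested, and 251 had the same call (37.2%), 10 the opposite one and 559 were on the same side. Of 5097 that were not called at P12, 349 were called higher and 347 lower at P13. The median log2 ratio was 1.45 at P12 and 0.93 at P13 for the calls higher, and -1.73 and -0.81 for the calls lower. For comparison, P13 against P12 gave calls for 9.04% of 9794 circRNAs in wild type and 8.18% of 5206 in the deletion, both directions together. Y-chromosome circRNAs held 252 reads in wild type P12, 80 in deletion P12, 342 in wild type P13 and 0 in deletion P13, so that the deletion P13 library stands apart, and whether this touches the P13 values was not tested.

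**Figure D5:**
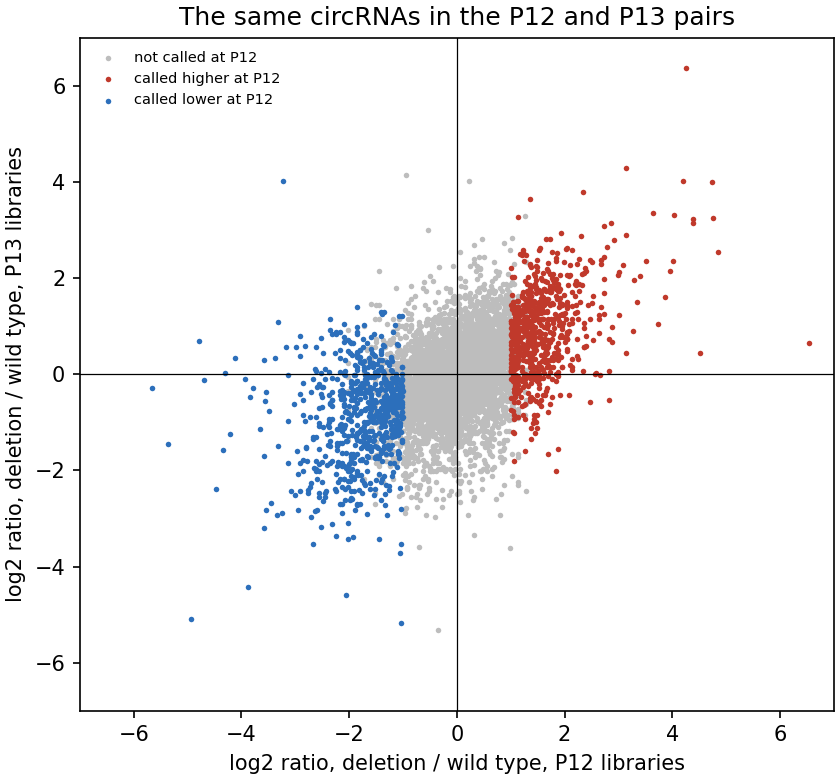
Log2 ratio of deletion to wild type in the P12 libraries (x axis) and in the P13 libraries (y axis) for the circRNAs tested in both pairs, coloured by their call at P12. Of the 698 red points 590 are above 0 on the y axis and of the 675 blue points 559 are below it, and grey points not called at P12 spread on both sides.

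The shares called differed less between classes than between spans. Exonic circRNAs were called higher in 10.7% and lower in 10.6% of 6662, intronic ones in 12.7% and 8.60% of 314, and intergenic ones in 15.4% and 11.6% of 285. By chromosome the share called higher ran from 8.22% (chromosome 6) to 15.5% (chromosome 7), and the share called lower from 6.40% (chromosome X) to 14.6% (chromosome 17). The median log2 ratio of a chromosome stayed between -0.14 and 0.04.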

How the data were processed

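Circular RNA was sequenced from ocular tissue, 1 library for each genotype and day. The deposited tables give counts of junction and non-junction reads per circRNA, and their columns are those of CIRI, per the file headers. The junction ratio is a fraction that the authors computed from both counts, and SRPBM is a signal in which the authors divided junction reads by a constant per library. The meaning of that constant, the genome build and the annotation were not given in the sources used here, so coordinates follow the deposited tables. The submitters' processing notes name BWA and DESeq2 without versions or roles. Host identifiers were matched to a RefSeq table of assembly GRCm38.p6, used for names and neighbouring genes only, and 99.8% to 99.9% per library matched.

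Junction counts of the P12 libraries were joined on the circRNA's position, with an unlisted circRNA taken as 0. CircRNAs with at least 20 reads over both were scaled by total junction reads, and the ratio was given an exact conditional (Clopper-Pearson) 95% interval (SciPy 1.17.1, Python 3.11.15). A circRNA with 0 reads in 1 library was given the ratio that 3 reads there would have, and a share of 0 was limited by 3 counts. Intervals and limits cover counting error only, since reads carry no molecular identifiers. The interval code was tested on simulated counts. Alternatives were edgeR 4.0.16's TMM scaling, SRPBM scaling, other read, fold and interval limits, merged ends, host sums and the P13 pair. Counting reads of 1 circRNA once where they lay within 2500 pixel units on 1 flow cell tile, and naming 10 circRNAs each way among those listed in both libraries, were added after the data had been seen.

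Named were the 10 circRNAs each way whose interval bound was farthest from 1, up to 3 called circRNAs of most reads per gene list, the 10 most abundant, and up to 5 hosts each way with most calls and 5 with calls both ways. CircRNAs of a few hosts that this rule names are not reported here. Other circRNAs given for a list or locus were chosen after their values were seen. The comparison and the gene lists were chosen with earlier results of these data known. With 1 library a group no p-value was computed, and no genome sequence was used here.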

Additional observations from a re-analysis of the deposited data

Results flagged for a closer look

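Genotype differences at P12 and P13 were set side by side for circRNAs whose ratio lay on opposite sides of 1 on the 2 days, and these differences between days were not tested. Among the 96 circRNAs named by the stated ranking rules, 5 called at P12 were on the other side at P13, without a call there. Some circRNAs given in the report outside those rules crossed 1 too. Among them, those of Slit2 (14 and 3 reads at P13) and Notch2 had been called higher at P12. Those of Cacna1f and Grm6, also outside the rules, had been called lower at P12 and were above 1 at P13. Among the 5, the circRNAs of Pecam1 (chr11:106679549-106685248) and Apc (chr18:34261005-34279352) were called higher at P12 and had P13 log2 ratios of -0.14 and -0.15. Lrp5 (chr19:3647528-3659640), Crebbp (chr16:4179424-4180133) and Sltm (chr9:70559037-70562861) were called lower at P12 and had P13 log2 ratios of 0.28, 0.43 and 0.70. Over all tested circRNAs, 16 were called one way at P12 and the other way at P13. Setbp1 gave one of them (chr18:79027924-79087180), with 62 and 0 reads at P12 and 0 and 22 at P13 in wild type and deletion. Another Setbp1 circle with the same end (chr18:79068007-79087180) had 0 and 32 reads at P12 and 0 and 0 at P13. Others came from Dcc, Nipbl, Mettl15, Cyfip2 and Tbc1d16.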

How the results depend on the processing

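With TMM scaling 790 circRNAs were called higher and 773 lower, and the 96 named circRNAs kept their direction. SRPBM scaling moved the median log2 ratio of tested circRNAs to -1.39 and gave 63 higher and 4660 lower. On that scale circRNAs called higher were below 1 for Pde6a (-0.34), Sag (-0.20, the longest of the 3), Trpm1 (-0.34), Mrc1 (-0.33), Dmd (-0.33 and -0.064), Sorcs1 (-0.19), Ep300 (-0.054), Fgfr2 (-0.012), Apc (-0.30), Rims2 (-0.20), Fbxo42 (-0.33), Atxn1 (-0.24), Cpeb3 (-0.32), Pola1 (-0.021) and Stk3 (-0.081), as log2 ratios. A minimum of 10 reads gave 1264 higher and 1904 lower and one of 50 reads 295 and 360. A fold limit of 4 gave 161 and 349, a limit of 1.5 gave 1049 and 965, and a stricter interval gave 388 and 339. Merging circRNAs whose ends lay within 10 bases gave 789 and 770. Of the 52 counts of calls per list, 52 stayed within 1.5 times of their value with TMM scaling, 52 with merged ends, 49 with nearby reads counted once and 12 with SRPBM scaling. Reads summed per host gave 238 and 406 hosts. Without circRNAs unlisted in 1 library 595 were called lower. Counting nearby reads once left 692 and 683, of which 657 and 649 had been called before. The P13 pair gave log2 ratios on the other side of 1 for Pecam1 (-0.14), Lrp5 (0.28), Crebbp (0.43), Apc (-0.15) and Sltm (0.70). Stricter limits leave fewer circRNAs by construction. Counts of 20 to 49 reads limit a call to large ratios, and library, run and genotype cannot be told apart with 1 library a side. No paired analysis was possible because each group held 1 library.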

Other observations

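Reads of the same circRNA that lay within 2500 pixel units of each other on 1 flow cell tile made up between 7.51% and 7.74% of the junction reads in all 4 libraries. The wild-type P12 library, with 662811 reads, listed 28563 circRNAs. If its reads were drawn down to the 299723 of the deletion P12 library, 20823 would be listed on average, against the 18022 of that library. At P12, 14184 circRNAs were listed in both libraries, 14379 in wild type only and 3838 in the deletion only. Y-chromosome circRNAs made up 380 RPM in wild type P12, 267 in deletion P12 and 451 in wild type P13, and the 0 reads of deletion P13 allow up to 8.78.

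Among pairs of called circRNAs that share a splice position, 172 of 226 were called the same way and 54 in opposite ways. In Pik3c2a, which has no shared position, the circRNA at chr7:116346119-116350929 was called lower with 63, 13, 55 and 12 reads (wild type P12, deletion P12, wild type P13, deletion P13), beside the one that was called higher.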
